A study of Arabidopsis thaliana with 12 samples.

Results

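The mutant h2a.z was compared with the wild type Col of Arabidopsis thaliana across all genes of the deposited table. It sets 3 libraries of h2a.z against 3 of Col, chosen by the genotype in the labels, and all 12 libraries of the series enter the level filter and the estimate of the spread. All came from whole seedlings aged 7 days, kept at 21 °C in short days, and the 6 other libraries are an H3.3 knockdown (h3.3kd) and its combination with h2a.z (h3.3kd;h2a.z). The sources used here give neither the h2a.z alleles nor the H3.3 knockdown construct, and do not say whether libraries of a genotype came from separate growths. P-values therefore measure only the spread between these libraries, which may be technical.

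H2A.Z replaces ordinary H2A in some nucleosomes, where the SWR1 remodelling complex places it, chiefly at the start of genes. In Arabidopsis it is encoded mainly by HTA8, HTA9 and HTA11. Its presence over the body of a gene is known to go with low or strongly responsive expression, and its loss is known for effects on warmth responses, flowering time and immunity.

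Levels are in TPM, an abundance that is corrected for gene length and scaled to a fixed library total. Differences are h2a.z minus Col in log2(TPM + 1), which understates changes of low genes, and SE is their standard error. A gene is described as called, or as having risen or fallen, where its Benjamini-Hochberg adjusted p in limma is below 0.05. Seedlings are mixtures of cells, so fewer cells of a type and less RNA per cell cannot be told apart.

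By estimate, h2a.z replicate 1 held 4350000 reads, against 16500000 to 25400000 for every other library. Its reads each weighed 3.852 times as much as those of Col replicate 1. Across genes, libraries of Col correlated at 0.9932 to 0.9949 (Pearson r of log2 values), libraries of h2a.z at 0.9865 to 0.9933, and libraries of different genotype at 0.9511 to 0.9574. Genes are not independent replicates, so these values describe the libraries only.

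Transcripts of all 3 H2A.Z genes were lower in h2a.z. HTA9 (AT1G52740) had 159, 154 and 171 TPM in the Col libraries and 37.3, 31.4 and 29.5 TPM in the h2a.z libraries. HTA11 (AT3G54560) had 25.8, 23.7 and 23.7 TPM in Col and 2.89, 3.27 and 2.42 TPM in h2a.z. HTA8 (AT2G38810) had 8.89, 9.1 and 9.61 TPM in Col, 0.224 TPM in h2a.z replicate 1 and 0 in replicates 2 and 3. No h2a.z library reached the lowest Col library for any of them, and HTA9 kept the most transcript. The differences were -2.27 (SE 0.09) for HTA9, -2.72 (SE 0.12) for HTA11 and -3.25 (SE 0.13) for HTA8, with limma adjusted p of 6.63e-11, 1.8e-10 and 1.03e-10. Whether the remaining reads came from intact transcripts cannot be read from a value per gene. Among 9 other H2A genes tested 3 rose (33.3%) and 2 fell (22.2%), near the 28.9% and 18.3% of all genes. They were led by HTA1 at -0.54 (SE 0.08) and HTA5 at 0.46 (SE 0.07). The H3.3 genes HTR4, HTR5 and HTR8 were at -0.14, -0.10 and -0.09 and were not called.

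Of 18851 genes tested, 5449 were called higher in h2a.z (28.9%) and 3451 lower (18.3%). Most of these differences were small: 67.2% of the called genes differed by less than 1.5-fold. At least 2-fold differences were found for 570 genes higher (3.02%) and 395 lower (2.1%), and at least 4-fold for 101 higher and 92 lower. The 3 Col and 3 h2a.z libraries did not overlap for 567 of the 570 and 394 of the 395. Choosing genes by size and p in these same libraries favours such separation, so these counts are a description only. Without h2a.z replicate 1, 568 and 394 of these genes were still called, and 7828 of the 8900 calls of any size (88.0%) were shared, with 0 reversed. The balance of rises and falls depended on the scale: calls were 61.2% higher with the TPM as deposited, and 49.1% higher (4583 higher, 4760 lower) after rescaling by median ratios between libraries. At 2-fold the counts were 478 higher and 427 lower on that scale. Of the 570 and 395 genes, 569 and 395 were still called there, at any size. The median difference of all genes tested was 0.058 as deposited and -0.009 after rescaling.

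**Figure D1:**
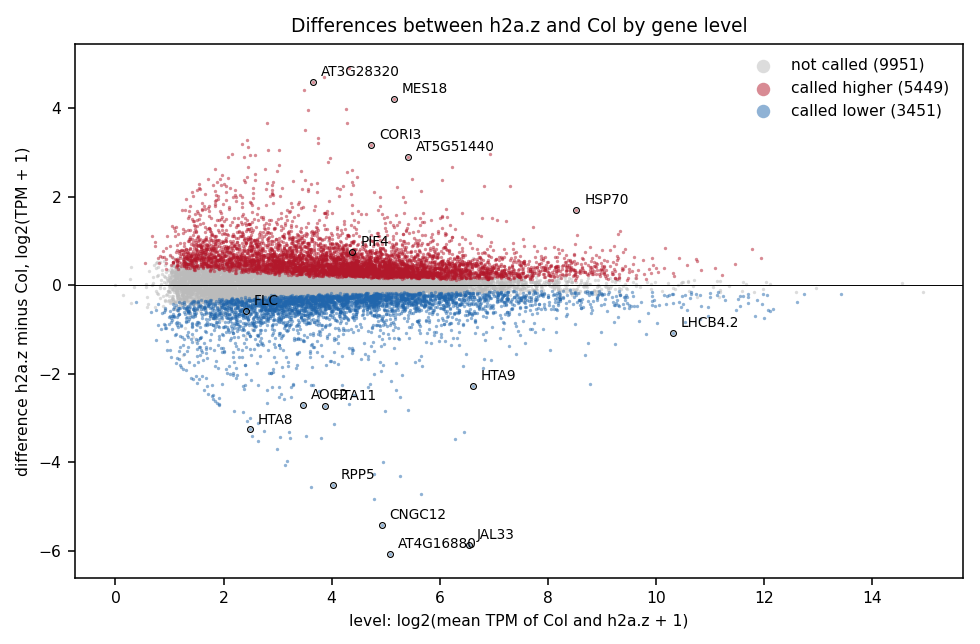
Each point is 1 of the 18851 genes tested; the x axis is log2 of the mean TPM of Col and h2a.z plus 1 and the y axis the difference h2a.z minus Col in log2(TPM + 1). The 5449 genes called higher (red) and the 3451 called lower (blue) lie mostly close to 0, and the genes with the widest differences, such as JAL33 (-5.85) and MES18 (4.2), stand far outside that band.

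Large rises were more frequent among low genes. Of genes with a mean of 1 to 2 TPM, 6.34% were at least 2-fold higher and 2.86% lower. Of genes with 20 to 100 TPM the shares were 1.67% and 1.39%, and from 100 TPM upward they were 0.675% and 1.35%. Rises thus outnumbered falls at 2-fold in the low classes and fell below them in the most abundant class. The share of genes at least 2-fold changed was alike on the 5 chromosomes, from 2.63% to 3.48% higher and from 1.7% to 2.82% lower. Of 73 plastid genes tested 1 rose (1.37%) and 7 fell (9.59%), and of 17 mitochondrial genes 2 rose (11.8%) and none fell. All these shares were below the 28.9% risen and 18.3% fallen of all genes.

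Among the 15 largest rises were several genes that Col seedlings hardly expressed. AT3G28320, an uncharacterized protein gene, was listed at 0 in all 3 Col libraries and had 24.5, 19.5 and 25.6 TPM in h2a.z. AT5G66970, annotated as a P-loop nucleoside triphosphate hydrolase, was listed at 0 in Col and had 21.9, 17.1 and 22 TPM in h2a.z. AT5G66980, its neighbour in identifier order and annotated as an AP2/B3-like transcription factor gene, was also listed at 0 in Col and had 9.53, 5.99 and 9.05 TPM. All 3 genes were measured in every h2a.z library; a lack of overlap was a condition for entering this group. MES18 (AT5G58310), a methyl esterase gene, had 2.09, 3.65 and 2.42 TPM in Col and 69.3, 67.5 and 61.8 TPM in h2a.z, a difference of 4.2 (SE 0.16). AT5G47600, annotated as an HSP20-like chaperone, had 1.39, 1.14 and 1.27 TPM in Col and 39.9, 27.3 and 38.2 TPM in h2a.z, a difference of 3.98 (SE 0.17). ABCA9 (AT5G61730), a transporter gene of the ABC family, had at most 0.0181 TPM in Col and 7.75 to 9.64 TPM in h2a.z. The other genes of this group were AT3G25719, the RNA-binding protein gene AT4G24420, AT3G21080, AT5G13210, the F-box-like gene AT3G28330, the invertase inhibitor family gene AT5G46940, AT2G39240, AT3G03776 and CORI3, with differences from 3.16 to 4.90.

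Among the 15 largest falls, 4 genes were listed at 0 in all h2a.z libraries. AT4G16880, a leucine-rich repeat gene, had 69.2, 64.0 and 63.2 TPM in Col. AT4G19500, annotated as a nucleotide-binding receptor, had 25.1, 22 and 20.9 TPM in Col. AT5G51620 had 17.5, 12.9 and 16.7 TPM and AT3G18535, annotated as a tubulin-tyrosine ligase, had 11.1, 10.3 and 9.95 TPM. One read would have been worth at most 0.37 TPM for any of these 4 genes in the shallow library, far below their Col levels. JAL33 (AT3G16450), a jacalin-related lectin gene, had 179, 187 and 182 TPM in Col and 1.92, 1.85 and 2.87 TPM in h2a.z, a difference of -5.85 (SE 0.11). CNGC12 (AT2G46450), an ion channel gene of plant immunity, had 64.6, 57.4 and 53.4 TPM in Col and less than 1 TPM in every h2a.z library, a difference of -5.41 (SE 0.10). ESM1 (AT3G14210), which shapes the products of glucosinolate breakdown, had 142, 141 and 141 TPM in Col and 14.1, 11.7 and 9.99 TPM in h2a.z. The other genes of this group were AT3G28270, the defensin-like gene AT1G13609, the resistance genes RPP5 and AT4G19510, the cytochrome P450 gene CYP71B26, AT3G23510, the glutathione transferase gene GSTU8 and AT3G09160, with differences from -3.70 to -4.82.

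The most abundant genes with a 2-fold rise were ROC1, a cyclophilin gene, the sulfurtransferase gene STR16, AT1G20070, HSP70 and the cysteine protease gene RD19. ROC1 (AT4G38740) had 400, 394 and 375 TPM in Col and 860, 868 and 896 TPM in h2a.z, a difference of 1.17 (SE 0.06). STR16 (AT5G66040) had 410, 365 and 393 TPM in Col and 900, 871 and 937 TPM in h2a.z. The most abundant genes with a 2-fold fall were the antenna genes LHCB4.2 and LHCB2.3, the metallothionein gene MT3, AT4G23670 and the ribosomal protein gene RPL12-C. RPL12-C (AT3G27850) had 699, 705 and 761 TPM in Col and 176, 147 and 136 TPM in h2a.z, a difference of -2.23 (SE 0.08). All 6 libraries of each of ROC1, STR16 and RPL12-C fell into 2 groups without overlap, which choosing called genes with a 2-fold change favours.

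Heat shock genes rose together at 21 °C. Small heat shock proteins bind unfolding proteins and are normally scarce in unstressed seedlings. Of the 9 genes tested 8 rose (88.9%, against 28.9% of all genes) and none fell, with a median difference of 1.64. AT5G51440, annotated like several of this list as an HSP20-like chaperone, had 9.58, 9.6 and 8.29 TPM in Col and 72.0, 69.9 and 80.5 TPM in h2a.z. HSP17.6II (AT5G12020) had 6.54, 4.62 and 3.21 TPM in Col and 35.2, 33.7 and 27.3 TPM in h2a.z. AT1G07400 had 9.14, 12.4 and 11.3 TPM in Col and 51.7, 46.2 and 41.4 TPM in h2a.z. For these 3 genes the lowest h2a.z library was above the highest Col library, with differences of 2.89 (SE 0.17), 2.55 (SE 0.18) and 1.99 (SE 0.19) and limma adjusted p of 5.07e-09, 3.45e-08 and 1.26e-06. AT1G53540, AT2G29500 and HSP18.2 rose by 1.73, 1.64 and 1.37. Small genes of this family resemble each other and can share reads, so their separate values are uncertain. HSP17.6A and AT5G37670 are the remaining called members; HSP17.6A lost its call without Col replicate 1 or without h2a.z replicate 3, and AT5G37670 without Col replicate 1 or 2 or h2a.z replicate 1.

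Of 10 heat-induced chaperones and helpers 7 rose (70.0%, against 28.9% of all genes) and none fell, with a median of 0.57. HSP70 (AT3G12580), a heat-inducible cytosolic chaperone gene, had 190, 163 and 167 TPM in Col and 514, 587 and 588 TPM in h2a.z, a difference of 1.69 (SE 0.15, limma adjusted p = 4.12e-07). HSP90.1 had 23.2, 17.5 and 19.4 TPM in Col and 53.0, 53.7 and 50.3 TPM in h2a.z. HOP3, a co-chaperone gene, rose by 1.12, MBF1C by 0.76, FES1A by 0.60 and the disaggregase gene HSP101 by 0.54. Of 13 heat stress transcription factor genes 6 rose (46.2%, against 28.9% of all genes) and 1 fell (7.69%, against 18.3%), with a median of 0.35. HSFA2 (AT2G26150), a heat-induced activator of chaperone genes, had 12.9, 8.67 and 10.5 TPM in Col and 33.7, 33.6 and 35 TPM in h2a.z, a difference of 1.6 (SE 0.17). HSFA7A, HSFB2B and HSFA1E rose by 0.82, 0.66 and 0.56, and HSFB1 fell by 0.40. Without h2a.z replicate 1 the counts were 7 risen of the small heat shock protein list, 6 of the chaperone list and 7 of the transcription factor list.

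The 250 bases before the annotated start of 18760 nuclear genes tested were searched for 2 motifs, GAANNTTC and CACGTG. GAANNTTC is 1 arrangement of the core of the heat shock element that heat stress factors bind. CACGTG is the G-box that PIF and other bHLH and bZIP factors bind. Each motif is its own reverse complement, so 1 scan covers both strands. The promoters of 3 risen heat genes are shown because 1 of them holds both motifs and 2 hold neither, on the RefSeq genome TAIR10.1 and in the direction of transcription, with matches to either motif in capitals. HSFA2 lies at chr2:11135374-11135623, plus strand, AT5G51440 at chr5:20890913-20891162, plus strand, and HSP17.6II at chr5:3883112-3883361, minus strand.
HSFA2: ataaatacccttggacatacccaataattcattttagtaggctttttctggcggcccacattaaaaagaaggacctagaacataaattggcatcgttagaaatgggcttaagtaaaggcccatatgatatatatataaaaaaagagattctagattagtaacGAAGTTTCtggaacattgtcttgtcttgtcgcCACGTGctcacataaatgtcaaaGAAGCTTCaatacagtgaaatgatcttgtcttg
AT5G51440: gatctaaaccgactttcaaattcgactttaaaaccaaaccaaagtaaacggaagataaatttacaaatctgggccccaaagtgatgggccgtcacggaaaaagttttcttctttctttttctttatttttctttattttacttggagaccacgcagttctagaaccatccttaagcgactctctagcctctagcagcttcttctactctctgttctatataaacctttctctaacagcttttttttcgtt
HSP17.6II: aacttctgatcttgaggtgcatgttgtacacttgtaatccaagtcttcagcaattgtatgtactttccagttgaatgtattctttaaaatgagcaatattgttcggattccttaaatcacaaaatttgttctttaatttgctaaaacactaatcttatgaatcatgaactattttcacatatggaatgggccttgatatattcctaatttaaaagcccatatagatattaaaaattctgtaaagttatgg
The 2 GAANNTTC matches of HSFA2 begin 88 and 33 bases before the start, and its 1 G-box begins 56 bases before it. GAANNTTC was found for 9.1% of all genes, for 2 of 9 small heat shock protein genes, 1 of 10 chaperone and helper genes and 3 of 13 heat stress factor genes. It was found for 7.72% of the genes at least 2-fold higher and 9.11% of those at least 2-fold lower. The G-box was found for 7.63% of all genes, 9.47% of those at least 2-fold higher and 11.6% of those lower, for 3 of 19 thermomorphogenesis and shade genes and 6 of 18 iron genes. No other motif or window was searched, and a missing match says only that these letters are not in this window.

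Of 19 tested genes of warmth-induced and shade-induced growth 8 rose (42.1%) and 1 fell (5.26%), against 28.9% and 18.3% of all genes. Their median was 0.12. After rescaling 6 rose and 3 fell, beside 4583 and 4760 of all 18851 genes. PIF4 (AT2G43010), a bHLH factor that drives elongation in warmth, had 15.6, 13.7 and 14.5 TPM in Col and 26.8, 23.7 and 25.2 TPM in h2a.z, a difference of 0.75 (SE 0.08, limma adjusted p = 3.83e-06). XTR7, a xyloglucan-modifying cell wall enzyme gene, had 2.97, 3.2 and 2.52 TPM in Col and 12, 9.06 and 8.4 TPM in h2a.z. Both genes were higher in every h2a.z library than in any Col library. The bHLH gene PIL1, the auxin synthesis gene TAA1 and the homeobox gene ATHB2 rose by 0.81, 0.64 and 0.47, and ATHB2 lost its call when Col replicate 1 or 2 or h2a.z replicate 2 was left out. ELF3, a clock gene that represses PIF4, fell from 9.77, 10.9 and 7.75 TPM to 6.03, 4.94 and 4.49 TPM, a difference of -0.76 (SE 0.12). The auxin synthesis gene YUC8 was at 0.18 (SE 0.12) and the auxin response gene IAA19 at -0.18 (SE 0.27), neither called, and IAA19 was at 0.19 without h2a.z replicate 1. IAA29 was below the level filter, with means of 0.807 TPM in Col and 0.73 TPM in h2a.z.

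Lists for other growth hormones are given beside the shares over all genes, 28.9% risen and 18.3% fallen. Of 10 auxin response genes 3 rose (30.0%) and 3 fell (30.0%). The repressor gene IAA3 had 65.9, 57.2 and 54.8 TPM in Col and 25.1, 24.3 and 26.9 TPM in h2a.z, a difference of -1.19 (SE 0.08). The auxin-conjugating enzyme genes GH3.3 and GH3.5 rose by 0.86 and 0.67. Of 14 brassinosteroid and gibberellin genes 5 rose (35.7%) and 4 fell (28.6%). The brassinosteroid transcription factor genes BES1 and BZR1 rose by 0.62 and 0.57, and the gibberellin synthesis gene GA3OX1 fell by 0.69.

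**Figure D2:**
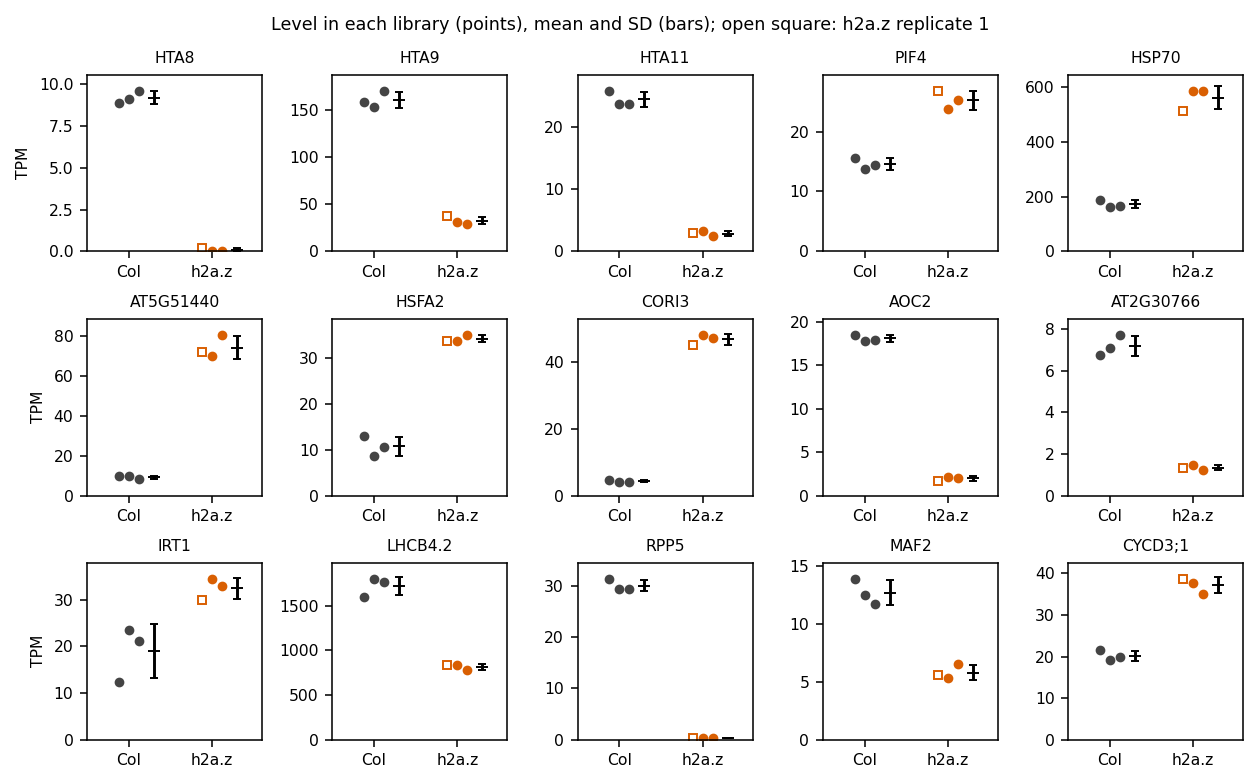
TPM (y axis, from 0) of 15 genes in the 3 Col and 3 h2a.z libraries; points are libraries, the open square is the shallow h2a.z replicate 1, and bars show the mean and SD of 3 libraries. All 15 genes drawn are called ones, a choice that favours separation. The groups do not overlap in any of the 15 panels, and IRT1 has the widest Col spread relative to its mean, from 12.4 to 23.6 TPM.

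Genes of jasmonate synthesis and output mostly rose, and those of its receptor and repressors did not. Jasmonate is a lipid-derived hormone of wounding and defence. Of 15 genes of its synthesis and output 11 rose (73.3%) and 1 fell (6.67%), against 28.9% and 18.3% of all genes. Their median difference was 0.72. CORI3 (AT4G23600), a jasmonate-responsive gene of the tyrosine transaminase family, had 4.7, 4.16 and 4.18 TPM in Col and 45.2, 48.3 and 47.2 TPM in h2a.z, a difference of 3.16 (SE 0.09). LOX2, a chloroplast lipoxygenase gene of the first synthesis step, had 26.7, 23.3 and 18.0 TPM in Col and 59.0, 62.8 and 59.0 TPM in h2a.z. Of the allene oxide cyclase genes, AOC2 fell from 18.5, 17.8 and 17.9 TPM to 1.64, 2.17 and 2.07 TPM, while AOC1 rose from 17.7, 18.3 and 21.3 TPM to 30.9, 41.8 and 37.3 TPM. These paralogs lay apart in opposite directions, with differences of -2.69 (SE 0.11) and 0.90 (SE 0.10), and similar copies can share reads. The storage protein gene VSP2 and the chlorophyllase gene CLH1 rose by 1.3 and 0.93. Among 13 genes of the receptor and its repressors 3 rose (23.1%) and 2 fell (15.4%), near the 28.9% and 18.3% of all genes. JAZ9, a repressor gene, fell from 96.3, 99.4 and 96.2 TPM to 53.4, 49.3 and 41.7 TPM, and the activator gene MYC4 fell by 0.72, while the repressor genes JAZ3 and JAZ4 rose by 0.84 and 0.76.

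Immune genes did not move as one group. Of 11 salicylic acid genes 4 rose (36.4%, against 28.9% of all genes) and 1 fell (9.09%, against 18.3%). The defence protein gene PR5 had 28.2, 26.6 and 31.8 TPM in Col and 67.6, 59.7 and 56.3 TPM in h2a.z, a difference of 1.06 (SE 0.10). EDS5, which exports the salicylic acid precursor from plastids, had 10.3, 10.4 and 9.49 TPM in Col and 3.94, 4.56 and 4.28 TPM in h2a.z, a difference of -1.07 (SE 0.10). Of 10 genes of pattern-triggered immunity none rose and 1 fell, CYP81F2 at -0.61 (SE 0.16). Of 6 tested genes of the RPP4/RPP5 cluster of immune receptors 5 fell at least 2-fold, against 2.1% of all genes, and 1 rose. RPP5 (AT4G16950) had 31.4, 29.5 and 29.5 TPM in Col and 0.352, 0.37 and 0.359 TPM in h2a.z. RPP4 had 26.8, 23.5 and 23.6 TPM in Col and 2.02, 1.29 and 0.89 TPM in h2a.z. SNC1, a receptor gene known from autoimmune mutants, fell from 79.4, 74.7 and 81.4 TPM to 22, 20.8 and 21.6 TPM. The members of this cluster are near copies, so reads can be split between them.

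Glucosinolate genes fell in the aliphatic branch, which makes sulfur-rich defence compounds from methionine. Of 13 genes tested 7 fell (53.8%, against 18.3% of all genes) and none rose. Of the 7 genes 6 fell at least 2-fold, and the list had a median of -0.34 and a mean of -1.07. MAM1, the chain elongation gene, had 8.38, 8.38 and 10.3 TPM in Col and 0.292, 0.137 and 0.31 TPM in h2a.z, a difference of -3.01 (SE 0.12). CYP83A1, a core enzyme gene, had 57.6, 58.1 and 65.3 TPM in Col and 11.5, 12.7 and 9.09 TPM in h2a.z. The core enzyme genes CYP79F1 and CYP79F2 fell by 2.48 and 2.01, the transporter gene BAT5 by 1.72 and the aminotransferase gene BCAT4 by 1.68. Of 8 genes of the indolic branch, which starts from tryptophan, 3 rose and 2 fell. Its regulator genes went apart, MYB34 with a fall of 0.66 and MYB51 with a rise of 0.61, and the core enzyme gene CYP83B1 rose by 0.38.

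Nutrient genes showed mixed changes. Of 18 iron deficiency genes 10 fell (55.6%, against 18.3% of all genes) and 4 rose (22.2%, against 28.9%), with a median of -0.32. The largest falls were of 3 list members that RefSeq annotates as uncharacterized proteins: AT2G30766 had 6.79, 7.1 and 7.74 TPM in Col and 1.32, 1.48 and 1.23 TPM in h2a.z, a difference of -1.81 (SE 0.14). AT1G47395 fell by 1.31 and AT1G47400 by 0.88, and the ferritin gene FER3, an iron store, fell by 0.78. The list mixes genes of different roles, uptake and storage among them, so its count of falls gives no direction for the iron response. The root uptake genes FRO2 and IRT1 rose. The ferric reductase gene FRO2 had 4.52, 7.52 and 6.83 TPM in Col and 9.55, 11.5 and 11.9 TPM in h2a.z, a difference of 0.74 (SE 0.19). The transporter gene IRT1 was at 0.78 (SE 0.25), from 12.4, 23.6 and 21.1 TPM to 30.0, 34.5 and 32.9 TPM, and lost its call without Col replicate 1 or h2a.z replicate 2. Of 15 phosphate starvation genes 4 rose (26.7%, against 28.9% of all genes) and 5 fell (33.3%, against 18.3%), and the rises were led by the phosphatase gene PS2 at 1.62 (SE 0.18), the transporter gene PHT1;1 at 0.81 and the exporter gene PHO1 at 0.71. Of 9 sulfur genes 2 rose (22.2%) and 4 fell (44.4%), with the APS kinase gene APK1 at -0.84 (SE 0.10). Of 5 nitrate genes 1 rose and 3 fell, with both nitrate reductase genes lower, NIA2 at -0.48 and NIA1 at -0.41. Of 6 copper and superoxide dismutase genes 1 rose (16.7%) and 1 fell (16.7%), the iron enzyme gene FSD1 at -0.56 (SE 0.11).

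In the list for abscisic acid, cold and drought, 20 genes were tested, of which 6 rose and 4 fell, shares close to the 28.9% and 18.3% of all genes. COR15A, a cold-induced chloroplast protein gene, had 57.6, 80.9 and 103 TPM in Col and 234, 210 and 205 TPM in h2a.z, a difference of 1.45 (SE 0.18). RAB18, a dehydrin gene induced by abscisic acid, had 138, 128 and 134 TPM in Col and 29.7, 30.4 and 55.2 TPM in h2a.z, a difference of -1.83 (SE 0.20). The proline synthesis gene P5CS1 and the dehydration gene RD22 rose by 0.60 and 0.49. Of 16 flavonoid and anthocyanin genes 4 rose and 6 fell (37.5%, against 18.3% of all genes). The early enzyme genes CHS and CHI rose by 0.55 and 0.65 and the glycosyltransferase gene UF3GT by 1.22, while the regulator genes MYB111 and TT8 fell by 0.78 and 0.69.

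Genes of photosynthesis encoded in the nucleus were lower. Of 14 light-harvesting genes, which encode the chlorophyll-binding antenna, 10 fell (71.4%, against 18.3% of all genes) and none rose, with a median of -0.36. LHCB4.2 (AT3G08940) had 1600, 1800 and 1760 TPM in Col and 830, 837 and 776 TPM in h2a.z, a difference of -1.08 (SE 0.07). LHCB1.2 had 4760, 5190 and 5340 TPM in Col and 3310, 3100 and 2740 TPM in h2a.z. Both groups stood apart for these genes, and LHCA1, LHCB5 and LHCA4 fell by 0.58, 0.56 and 0.55. Of 17 genes of photosystem cores and carbon fixation 10 fell (58.8%, against 18.3% of all genes) and none rose, with a median of -0.20. The photosystem I gene PSAE1 fell from 266, 279 and 264 TPM to 142, 126 and 137 TPM, a difference of -0.99 (SE 0.05), and the Rubisco small subunit gene RBCS1B fell by 0.72. Antenna and Rubisco genes have near copies that can share reads. The summed level of the light-harvesting list was 83930 to 94000 TPM in Col and 67590 to 77840 TPM in h2a.z. With a fixed total, a fall of such abundant transcripts raises the TPM of all others. After rescaling 10 of the 14 and 9 of the 17 genes fell, beside 4760 of all 18851 genes.

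Among the FLC clade, MADS-box genes that repress flowering, 5 of 6 tested fell (83.3%, against 18.3% of all genes) and none rose. Their median was -0.62. MAF2 had 13.9, 12.5 and 11.7 TPM in Col and 5.58, 5.33 and 6.5 TPM in h2a.z, a difference of -1.01 (SE 0.12). FLC (AT5G10140) had 5.5, 5.62 and 4.98 TPM in Col and 2.84, 3.3 and 3.65 TPM in h2a.z, a difference of -0.58 (SE 0.13, limma adjusted p = 0.00241). MAF4, MAF3 and MAF1 fell by 1.12, 0.65 and 0.53. SOC1, a flowering activator gene that FLC represses, rose from 5.27, 4.16 and 4.36 TPM to 6.97, 6.99 and 7.04 TPM, a difference of 0.52 (SE 0.10). Of 14 clock genes 1 rose (7.14%, against 28.9% of all genes) and 5 fell (35.7%, against 18.3%). LHY rose by 0.35, while PRR7, PRR9, LNK2, CCA1 and RVE8 fell by 0.49 to 0.24.

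**Figure D3:**
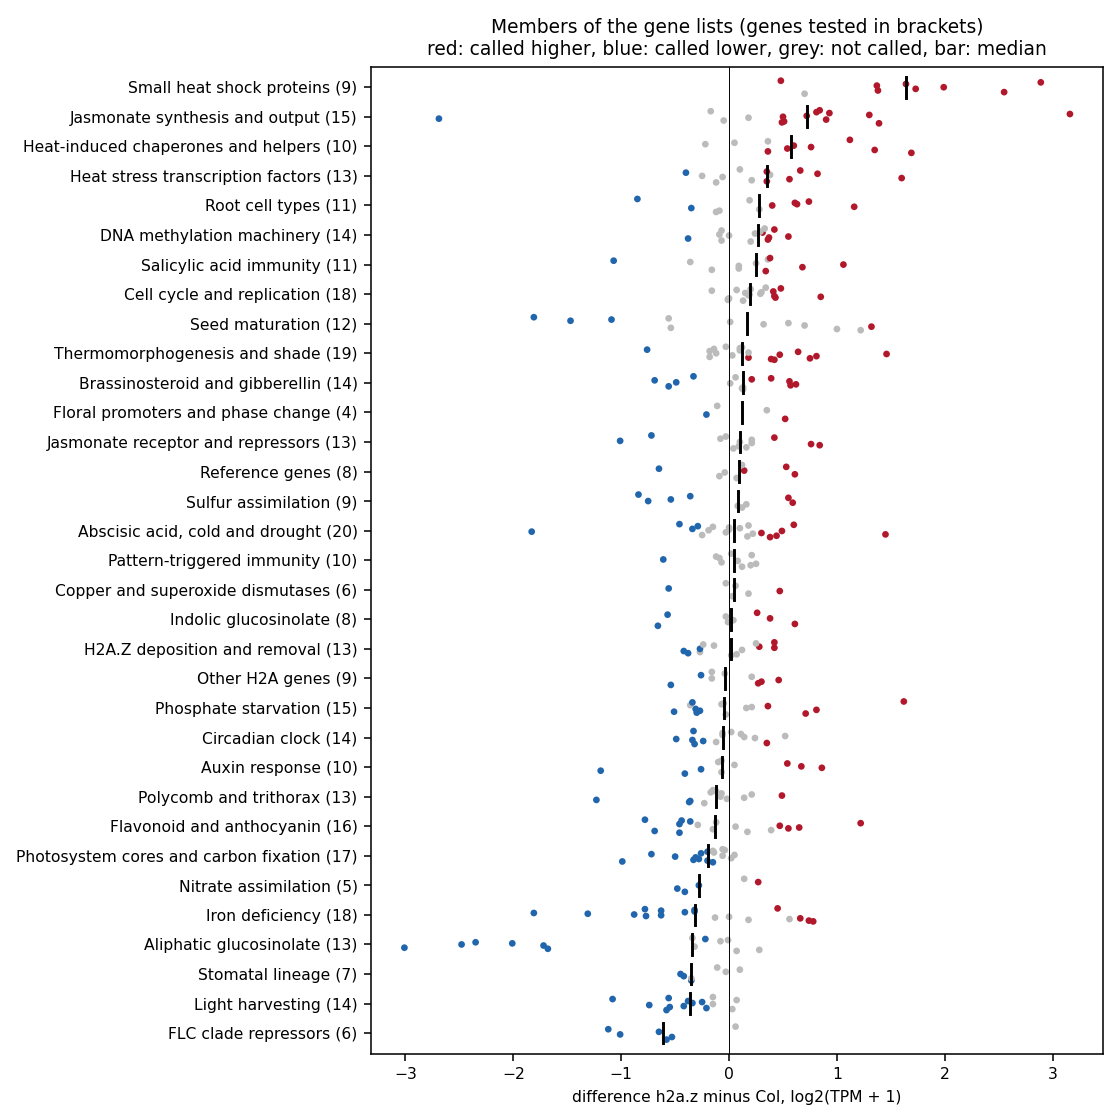
Difference h2a.z minus Col in log2(TPM + 1) (x axis) for the tested members of each gene list (y axis, number tested in brackets), with called genes in red (higher) or blue (lower), other genes in grey and the list median as a bar. Small heat shock proteins have the highest median (1.64) and the FLC clade the lowest (-0.62) of the lists drawn, which leave out the H2A.Z genes, the RPP4/RPP5 cluster and lists with under 4 tested genes.

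Of 98 tested genes with histone in the product name, the H2A.Z genes included, 26 rose (26.5%) and 20 fell (20.4%), near the 28.9% and 18.3% of all genes, and 4 were at least 2-fold higher and 6 lower. AT1G07660, annotated in the histone superfamily, had 34.5, 35.4 and 33.7 TPM in Col and 119, 95 and 94.3 TPM in h2a.z, a difference of 1.54 (SE 0.08), and the deacetylase gene HDA18 rose by 1.67. The H2B gene HTB1, named here after its values were seen, rose by 1.32, from a mean of 120 TPM to 302 TPM. Histone genes have near copies that can share reads. Of 13 genes for H2A.Z deposition and removal 3 rose (23.1%) and 3 fell (23.1%), all by less than 0.5. Among them were the SWR1 subunit gene SEF at -0.38, AT2G47210, annotated as a MYB-like factor, at -0.42 and the H2A.Z-removing chaperone gene NRP1 at 0.42. Of 13 Polycomb and trithorax genes 1 rose (7.69%) and 3 fell (23.1%). VRN2, a Polycomb subunit gene of vernalization, had 13.8, 12.6 and 12 TPM in Col and 5.02, 5.07 and 4.53 TPM in h2a.z, a difference of -1.23 (SE 0.11). Of 14 DNA methylation genes 5 rose (35.7%, against 28.9% of all genes) and 1 fell (7.14%, against 18.3%), with the demethylase gene ROS1 at 0.55 (SE 0.11) and the methyltransferase gene DRM2 at -0.38. Of 18 cell cycle and replication genes 5 rose (27.8%, near the 28.9% of all genes) and none fell. After rescaling 4 rose and 1 fell, beside 4583 and 4760 of all 18851 genes. CYCD3;1, a cyclin gene of cell cycle entry, had 21.5, 19.2 and 19.9 TPM in Col and 38.7, 37.8 and 35.1 TPM in h2a.z, a difference of 0.85 (SE 0.11).

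Markers of organs and cell types also differed between the genotypes. Of 11 root markers 5 rose and 2 fell: PRP3, a root hair cell wall gene, rose by 1.16 and the endodermal gene CASP1 by 0.74, while PYK10, the abundant root beta-glucosidase, fell from 1330, 1380 and 1290 TPM to 692, 751 and 775 TPM. The root hair expansin gene EXPA7, named here after its values were seen, fell by 0.35 (SE 0.13, limma adjusted p = 0.0455). PRP3 and EXPA7 thus moved apart and give no common direction for root hair genes. The summed root list was 1445 to 1549 TPM in Col and 913.3 to 1022 TPM in h2a.z, mostly PYK10. Without PYK10 the sum was higher in h2a.z, with 150.8, 168 and 153.9 TPM in Col and 221.2, 252.3 and 246.3 TPM in h2a.z. Of 7 stomatal lineage genes 3 fell (42.9%, against 18.3% of all genes) and none rose. Their summed level was 119.6 to 134.6 TPM in Col and 103.6 to 119.6 TPM in h2a.z. Of 9 meristem and floral organ regulators 3 passed the level filter, with STM and KNAT1 higher by 0.52 and 0.75 and CUC2 lower by 0.56. Of 12 seed maturation genes 3 fell and 1 rose. That gene, SESA2, a seed storage albumin, had a log2 fold change of 1.32, which was 0.54 without h2a.z replicate 3, 1.27 without Col replicate 1 and 1.07 without Col replicate 3, and its call was lost in each case. The late embryo protein gene EM6 fell from 24.8, 21.2 and 19.6 TPM to 5.15, 3.4 and 9.18 TPM, and the seed regulator gene ABI3 from 6.64, 6.21 and 6.81 TPM to 2.31, 2.79 and 2.53 TPM. The summed seed list was 24.94 to 395.1 TPM in h2a.z and 50.72 to 75.08 TPM in Col, so the h2a.z libraries differed widely in seed transcripts. The part of organ composition in the lists above was not tested. Of 8 reference genes often used for normalization 3 rose (37.5%) and 1 fell (12.5%). UBQ10 rose by 0.61, TUB2 by 0.53 and GAPC1 by 0.14, and UBC9 fell by 0.65. GAPC1 lost its call after rescaling.

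Families defined by annotated names varied in how often their members were called, beside 28.9% risen and 18.3% fallen among all genes. After rescaling, 4583 of all 18851 genes rose and 4760 fell. Of 50 class III peroxidases, cell wall enzymes that use hydrogen peroxide, 29 rose (58.0%) and 3 fell (6.0%), and 24 rose and 5 fell after rescaling. AT2G24800 had 2.38, 0.72 and 2.3 TPM in Col and 13.5, 10.9 and 8.76 TPM in h2a.z, and AT2G41480 rose by 1.79 (SE 0.16). Of 25 XTH genes, which cut and rejoin xyloglucan, 13 rose (52.0%) and 2 fell (8.0%), with XTH12 at 1.06, and 11 rose and 3 fell after rescaling. Of 152 cytochrome P450 genes 61 rose (40.1%) and 24 fell (15.8%), from CYP71A25 at 2.60 and CYP72A8 at 2.37 to CYP71B26 at -4.32. Of 102 UDP-glucosyltransferases 47 rose and 18 fell, with AT2G18570 at 1.6 and UGT88A1 at -1.05. Of 310 genes annotated in ribosomal protein superfamilies 148 rose (47.7%) and 55 fell (17.7%), and 122 rose and 71 fell after rescaling. The shares fallen of the P450, UDP-glucosyltransferase and ribosomal groups were thus near that of all genes.

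Among all genes 2.1% were at least 2-fold lower and 3.02% at least 2-fold higher, and some families departed from these shares. Of 67 TIR-NBS-LRR resistance genes, intracellular immune receptors, 10 were at least 2-fold lower (14.9%) and 1 at least 2-fold higher, AT4G16857 at 2.25 (SE 0.19). In the RPP4/RPP5 cluster of immune receptors described above, 5 genes were at least 2-fold lower. How many of the 10 belong to that cluster was not counted, so the family is not a separate result. Of 62 genes named late embryogenesis abundant, a group with both desiccation proteins and membrane-bound relatives, 15 were at least 2-fold lower (24.2%) and 2 higher. AT3G02480 had 80.1, 64.4 and 77.3 TPM in Col and 9.83, 8.65 and 10.4 TPM in h2a.z, a difference of -2.81 (SE 0.24). The h2a.z libraries also differed in seed transcripts, with a summed seed list of 24.94 to 395.1 TPM against 50.72 to 75.08 TPM in Col, and the seed genes EM6 and ABI3 fell too; the part of seed transcripts in the fall of this family was not tested. Of 162 F-box genes 17 were at least 2-fold higher (10.5%) and 7 lower (4.32%). Of 44 WRKY transcription factor genes 14 rose (31.8%) and 6 fell (13.6%), near the 28.9% and 18.3% of all genes, WRKY46 by 1.33 upward and WRKY45 by 1.89 downward. Of 55 AP2/ERF genes 19 rose (34.5%) and 4 fell (7.27%), with ERF53 at 1.36 (SE 0.17) and AT4G16750 at -1.77 (SE 0.10). After rescaling 14 of the 55 rose and 7 fell.

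**Figure D4:**
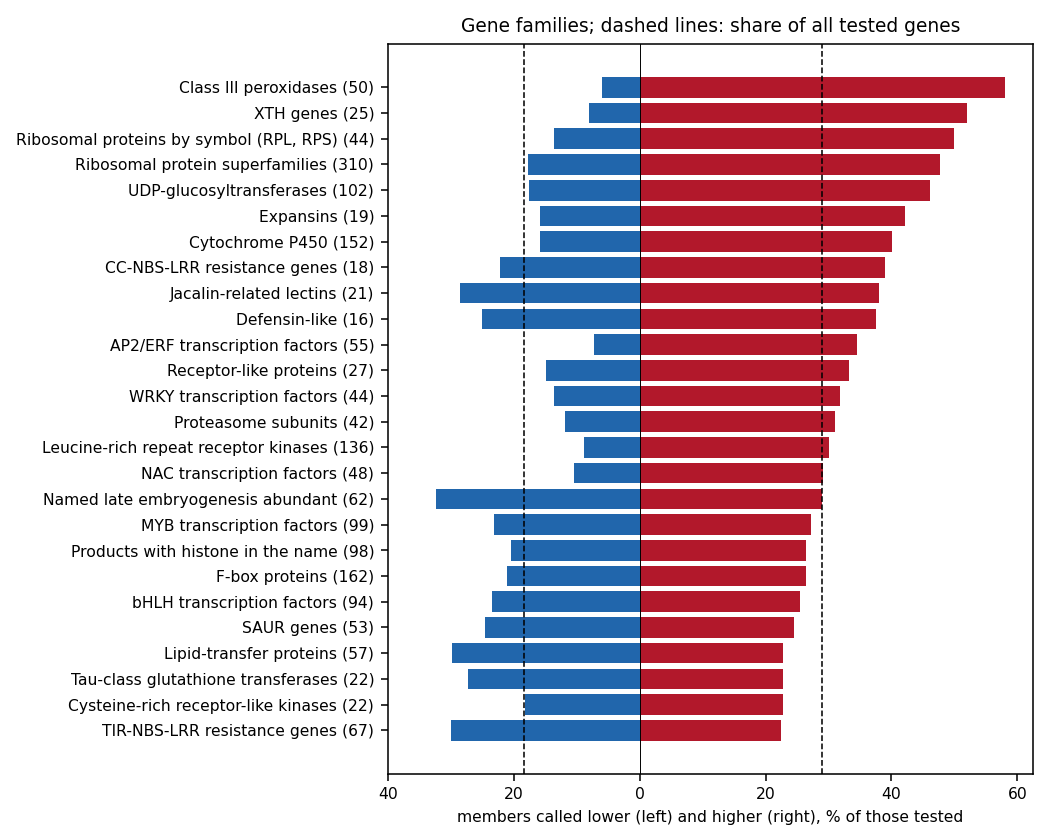
Share of the tested members (number in brackets) of 26 families called higher (red, to the right) and lower (blue, to the left) in h2a.z, in % of those tested. Dashed lines mark 28.9% higher and 18.3% lower among all genes tested; class III peroxidases have the longest red bar (58.0%) and genes named late embryogenesis abundant the longest blue bar (32.3%).

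A few stretches of chromosome held many genes with large changes. In 373 windows of 50 neighbouring tested genes, a size chosen after the data were seen, the median was 2 genes changed at least 2-fold, with quartiles of 1 and 4. There were 44 windows with none and 6 with at least 8. The fullest, on chromosome 4 from AT4G16710 to AT4G17280, held 14, of which 13 were lower, and includes the RPP4/RPP5 cluster. The next, on chromosome 3 from AT3G27460 to AT3G28340, held 12, of which 10 were lower, and includes AT3G28270 and RPL12-C among the falls and AT3G28320 and AT3G28330 among the rises. A window on chromosome 1 from AT1G02140 to AT1G02830 held 9. The remaining 3 held 8 each, on chromosome 1 from AT1G29020 to AT1G29600, on chromosome 3 from AT3G25660 to AT3G26290 and on chromosome 4 from AT4G36290 to AT4G36930. Another comparison set h3.3kd;h2a.z against h3.3kd, libraries of the same fit but on neither side of h2a.z against Col. There these 6 windows held, in the order given, 1, 3, 0, 3, 7 and 5 genes changed at least 2-fold. The windows were picked as the fullest for h2a.z against Col, which favours lower counts in another comparison. The median over all windows is not given for h3.3kd;h2a.z against h3.3kd, so these counts are a description only.

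**Figure D5:**
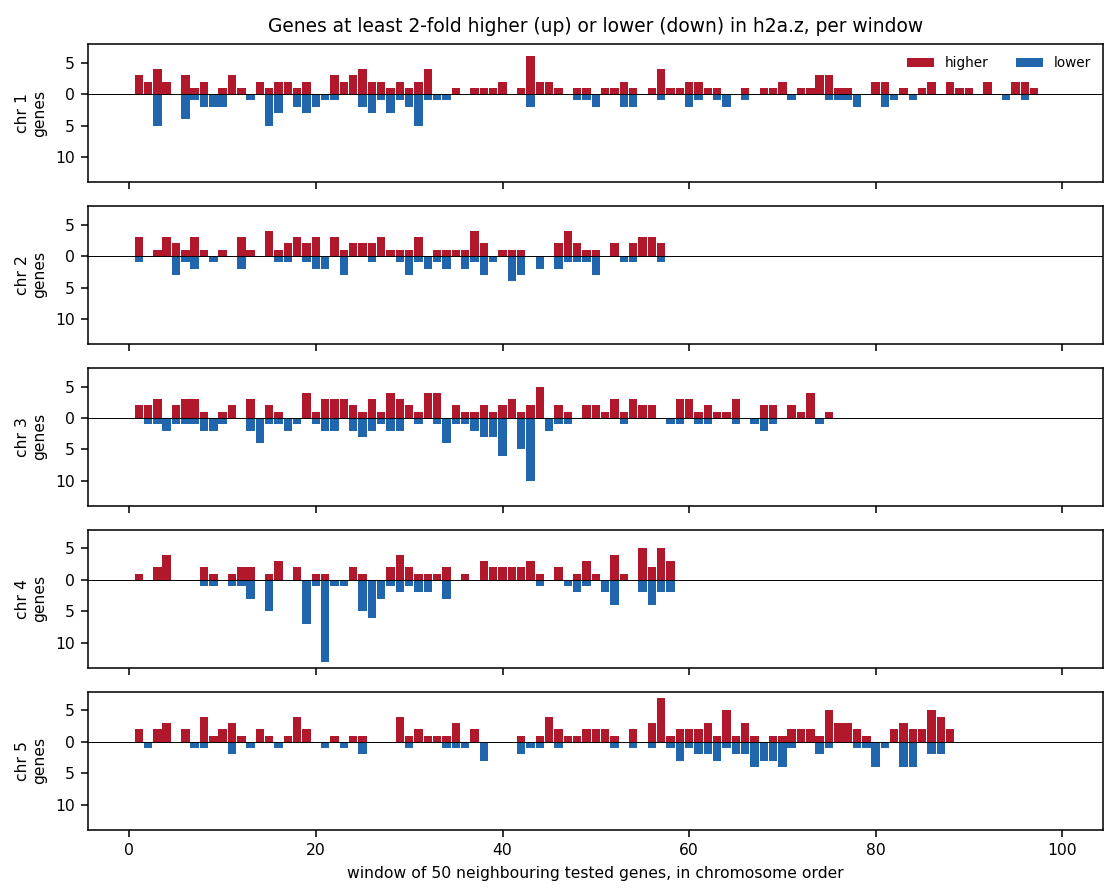
Number of genes at least 2-fold higher (red, upward) or lower (blue, downward) in h2a.z (y axis, genes) per window of 50 neighbouring tested genes in order along each of the 5 chromosomes (x axis, window number). The deepest blue bars are 13 genes on chromosome 4 and 10 genes on chromosome 3, against a median of 2 changed genes a window.

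For the genes with the largest changes, the effect of losing H2A.Z was also compared between the Col and h3.3kd backgrounds in the same limma fit, where the difference of effects was called for 17.5% of all genes tested. These genes were chosen for their large difference between h2a.z and Col, which enters the test, so a smaller effect in h3.3kd is favoured by the choice and the counts are a description only. The share of all genes called between h3.3kd;h2a.z and h3.3kd is not given here, so counts of such calls have no background beside them. All 15 of the largest rises were also called higher in h3.3kd;h2a.z than in h3.3kd. The difference of effects was called for 9 of them. AT4G24420 rose by 4.69 in Col and 4.91 in h3.3kd, whereas MES18 rose by 4.2 and 0.75. Of the 15 largest falls 10 were called lower in h3.3kd;h2a.z, and the difference of effects was called for 10. CNGC12 and JAL33 fell by 5.41 and 5.85 in Col and by 5.69 and 5.54 in h3.3kd. RPP5 and AT4G19510 fell by 4.52 and 3.97 in Col and were at -0.17 and 0.00 in h3.3kd. Of 41 genes examined this way, these 30 included, the difference was called for 21. Levels in h3.3kd and h3.3kd;h2a.z are not given here. A smaller effect in h3.3kd therefore does not tell whether the level had already changed in h3.3kd or stayed near Col in h3.3kd;h2a.z.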

How the data were processed

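The authors deposited 1 table of TPM values for 23893 genes in 12 libraries; each column sums to 1000000. The build TAIR10 and the tools DESeq2 1.26.0, HTSeq 0.11.2, HISAT2 2.1.10 and fastp 0.20.1 were used, per the submitters' processing notes, which give no role or order. The sources used here do not say how the TPM were computed or whether strand was kept. An NEBNext Ultra kit made the libraries from total RNA, per the labels' protocols. Overlapping and antisense genes can therefore share reads.

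Genes with a mean of at least 1 TPM over the 12 libraries (18851) were tested on log2(TPM + 1) in R 4.3.3 (limma 3.58.1), with 4 groups of 3 libraries, 8 residual degrees of freedom and a variance trend. Tests were two-sided, adjusted by Benjamini-Hochberg over all genes tested. The analysis was tested on simulated data first. TPM keep no depth; the reads per library were estimated from the steps between low values and RefSeq exonic lengths. RefSeq (TAIR10.1) gave symbols, products, gene order and promoter sequences, and 23739 of 23893 identifiers matched; the other 154 are organelle genes.

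Members and 37 lists (463 genes, 409 tested) were chosen with earlier results of these data known. Named genes are 12 genes of interest, the 15 largest rises and falls (at least 5 TPM in Col or h2a.z, no overlap, called without h2a.z replicate 1), up to 6 called members a list, 2 rises and 2 falls a family, and the 5 most abundant 2-fold genes each way. Alternatives were another pseudocount, level filters, rescaling, nuclear genes alone, the 6 libraries alone, library weights, a replicate term and leaving out each library. The values of 1 called list member are not reported here.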

Additional observations from a re-analysis of the deposited data

Results flagged for a closer look

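The difference between the effects of losing H2A.Z in h3.3kd and in Col was called by limma for 21 of the 41 genes compared, against 17.5% of all genes tested. Of the 41, 30 were chosen for their large difference between h2a.z and Col, which enters this test, so smaller effects in h3.3kd are favoured by the choice and the values are a description. Values are the effect in h3.3kd minus the effect in Col on the log2(TPM + 1) scale, and all are called at an adjusted p below 0.05. They do not tell whether a level had already changed in h3.3kd or stayed near Col in h3.3kd;h2a.z.

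Some genes fell in h2a.z and fell less or not at all in h3.3kd. Among them the difference was 5.69 for AT4G16880, 4.42 for AT4G19500, 4.37 for AT1G13609, 4.35 for RPP5 and 4.32 for AT5G51620. It was 4.13 for AT3G28270, 3.98 for AT4G19510, 2.19 for AT3G09160, 1.22 for HTA9 and 1.04 for AT3G23510. ESM1 fell more in h3.3kd, with a difference of -2.40.

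Other genes rose in h2a.z and rose less or not at all in h3.3kd. Among them the difference was -3.44 for MES18, -2.63 for AT5G46940, -2.57 for AT3G28320, -1.40 for AT3G03776 and -1.36 for AT5G47600. It was -0.99 for AT5G13210 and for AT3G28330, -0.78 for PIF4 and -0.73 for AT5G66980. CORI3 rose more in h3.3kd, with a difference of 0.54.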

How the results depend on the processing

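With a pseudocount of 0.1 the genes at least 2-fold higher numbered 865 instead of 570. With a filter at a mean of 5 TPM, where fewer genes are tested, 300 were at least 2-fold higher and 245 lower. The other alternatives stayed within 1.5 times the main counts. Leaving out 1 library at a time gave 4539 to 5297 genes higher and 2767 to 3255 lower, and 557 to 601 and 383 to 431 at least 2-fold.

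The replicate numbers did not pair the libraries: deviations of same-numbered libraries correlated at -0.17 to 0.0766. A fit with the replicate number as a block gave 5311 genes higher and 3327 lower.

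Of 4290 recomputed values for 311 named genes, 4148 kept direction and call, 138 lost the call, 2 gained it (HTR4 with the 6 libraries alone, HTR5 with library weights) and 2 changed sign. Both sign changes were IAA19, never called: 0.15 with library weights, and -0.44 to 0.19 with 1 library left out; the cause was not tested. Depth limits low genes in h2a.z replicate 1 most.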
